A study of Mus musculus with 4 samples.

Results

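The T cell receptor V gene arrays are the rows of variable gene segments from which T cells assemble their antigen receptors. The members were all mouse RefSeq genes whose symbols start with Trav (alpha chain V genes, chromosome 14) or Trbv (beta chain V genes, chromosome 6), each taken with 1 kb either side. They numbered 165 of 49554 genes on the 19 autosomes and the X chromosome, with 130 Trav genes between 52427967 and 53977678 and 35 Trbv genes between 40891296 and 41558371 (mm10, inclusive). Of the Trav genes 114 were annotated as V segments and 16 as V segment pseudogenes, and of the Trbv genes 22 and 13.

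All libraries came from Bruce-4, a single embryonic stem cell line of C57BL/6J mice kept without added treatment in serum/2i/LIF medium, and each was made from 10000000 cells fixed with 1% formaldehyde for 10 min. ChIP-exo, in which an exonuclease trims the DNA recovered with an antibody, was carried out for CTCF (2 libraries), RAD21 (1 library) and H3K4me3 (1 library). CTCF is a zinc finger DNA-binding protein, RAD21 a subunit of the cohesin ring, and H3K4me3 a histone mark of active and poised promoters. The values analysed were the positions of called peaks, in 1 list for each antibody: a CTCF union list of 51737 peaks, 75897 RAD21 peaks and 21600 H3K4me3 peaks. No list had a replicate, and the depth was unknown, so no test over samples was possible; intervals are Wilson (shares) or exact Poisson (densities) at 95% and cover counting error only. H3K4me3 lay within 1 kb of 10 of 10 embryonic stem cell marker genes, Nanog, Pou5f1 and Sox2 among them, and of 8 of 16 T cell markers. Rag1, Ptcra, Cd3d and Cd3g were among the T cell genes without it, while Rag2, Cd3e, Cd4 and Lck carried it. It was also present at 3 of 6 B cell and 5 of 8 fibroblast markers. The share over all protein-coding genes was 64.9%, and the T cell, B cell and fibroblast shares were below it.

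In developing T cells the RAG recombinase cuts at recombination signals that follow each V segment. It joins 1 V segment to a J segment in the alpha chain, and to D and J segments in the beta chain. CTCF halts cohesin as the ring draws chromatin into loops, and in lymphocytes such loops are known to bring distant V segments near the D, J and C segments. In mouse the Trav and Trbv genes are read toward the J and C segments, which lie at higher coordinates, except Trbv31, which lies beyond the C segments and is read the opposite way. In an embryonic stem cell both arrays are unrearranged.

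Promoters from the flanks of the arrays are shown to set the marked flanks against the V genes, whose own sequence was not used here. The windows run from 250 bases before to 50 after a transcript start, are written 5′ to 3′ on the gene's strand, and come from RefSeq (GRCm38.p6, the assembly that mm10 names). Chd8, which encodes a chromatin remodeller, lies below the Trav array with its promoter at chr14:52257711-52258010 on the minus strand. Rab2b, which encodes a small GTPase of membrane traffic, has its promoter nearer to the array at chr14:52279346-52279645 on the minus strand. Ephb6, which encodes a receptor of the ephrin family, lies above the Trbv array with its promoter at chr6:41605261-41605560 on the plus strand. Capitals mark the bases inside a CTCF peak for Chd8 and Rab2b, and the bases inside an H3K4me3 peak for Ephb6, where no CTCF peak touched the window.
Chd8: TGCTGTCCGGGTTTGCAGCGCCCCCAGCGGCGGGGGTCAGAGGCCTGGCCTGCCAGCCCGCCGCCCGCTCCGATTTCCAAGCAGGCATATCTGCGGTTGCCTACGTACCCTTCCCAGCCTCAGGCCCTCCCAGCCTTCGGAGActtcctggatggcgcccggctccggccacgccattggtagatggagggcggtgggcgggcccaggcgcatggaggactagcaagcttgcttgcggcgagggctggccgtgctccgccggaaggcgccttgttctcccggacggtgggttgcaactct
Rab2b: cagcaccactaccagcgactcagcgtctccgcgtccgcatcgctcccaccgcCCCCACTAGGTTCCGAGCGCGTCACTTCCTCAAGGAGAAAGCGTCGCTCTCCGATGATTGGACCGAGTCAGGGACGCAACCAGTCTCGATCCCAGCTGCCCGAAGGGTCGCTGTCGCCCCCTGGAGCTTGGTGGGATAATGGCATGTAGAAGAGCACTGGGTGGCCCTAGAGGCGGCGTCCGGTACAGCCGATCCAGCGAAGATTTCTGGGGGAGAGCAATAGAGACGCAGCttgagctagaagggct
Ephb6: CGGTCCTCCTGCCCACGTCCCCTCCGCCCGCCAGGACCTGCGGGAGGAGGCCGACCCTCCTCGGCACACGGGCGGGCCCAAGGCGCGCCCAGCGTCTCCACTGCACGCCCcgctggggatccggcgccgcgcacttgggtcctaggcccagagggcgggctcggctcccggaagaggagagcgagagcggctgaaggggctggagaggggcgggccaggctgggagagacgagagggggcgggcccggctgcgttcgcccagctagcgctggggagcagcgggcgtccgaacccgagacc
The CTCF peak covered 143 of the 300 bases at Chd8 and 232 at Rab2b, and RAD21 covered 66 and 197. H3K4me3 covered 63 bases of the Chd8 window, 300 of the Rab2b window and 110 of the Ephb6 window. Of 15 promoters across the Trav array and its flanks, Chd8 and Rab2b were the 2 with CTCF, while 5 had H3K4me3. The Mettl3 promoter and the Sall2 promoter at chr14:52316274-52316573 lie nearer to the array. Both had H3K4me3 over all 300 bases and neither CTCF nor RAD21.

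No V gene carried H3K4me3. Within 1 kb it was found at 0 of 130 Trav and 0 of 35 Trbv genes, beside 36.6% of all RefSeq genes and 9.16% of those with a span of at most 2 kb. Short genes were set beside the V genes because the V genes had median spans of 502 bp (Trav) and 454 bp (Trbv), against 6006 bp over all genes, and a longer gene has a wider window. The median distance from a V gene start to the nearest H3K4me3 midpoint was 494.8 kb for Trav and 421.5 kb for Trbv, against 59.3 kb for genes of at most 2 kb.

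A minority of V genes carried CTCF or RAD21. CTCF lay within 1 kb of 23 of 130 Trav genes (17.7%, 95% interval 12.1 to 25.2%) and of 5 of 35 Trbv genes (14.3%, 95% interval 6.26 to 29.4%). The share was 8.6% among genes of at most 2 kb and 35.7% over all genes. RAD21 lay within 1 kb of 23 Trav genes (17.7%) and 8 Trbv genes (22.9%, 95% interval 12.1 to 39.0%), beside 11.9% of genes of at most 2 kb and 44.1% of all genes. Both proteins were called at 25 of the 165 V genes, RAD21 by itself at 6, CTCF by itself at 3, and neither at 131. CTCF was at 22 of 114 V segments (19.3%) and 1 of 16 V segment pseudogenes (6.25%) for Trav. For Trbv it was at 4 of 22 (18.2%) and 1 of 13 (7.69%), so each pseudogene share rests on 1 gene. RAD21 was at 22 of 114 and 1 of 16 for Trav, and at 5 of 22 (22.7%) and 3 of 13 (23.1%) for Trbv.

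**Figure D1:**
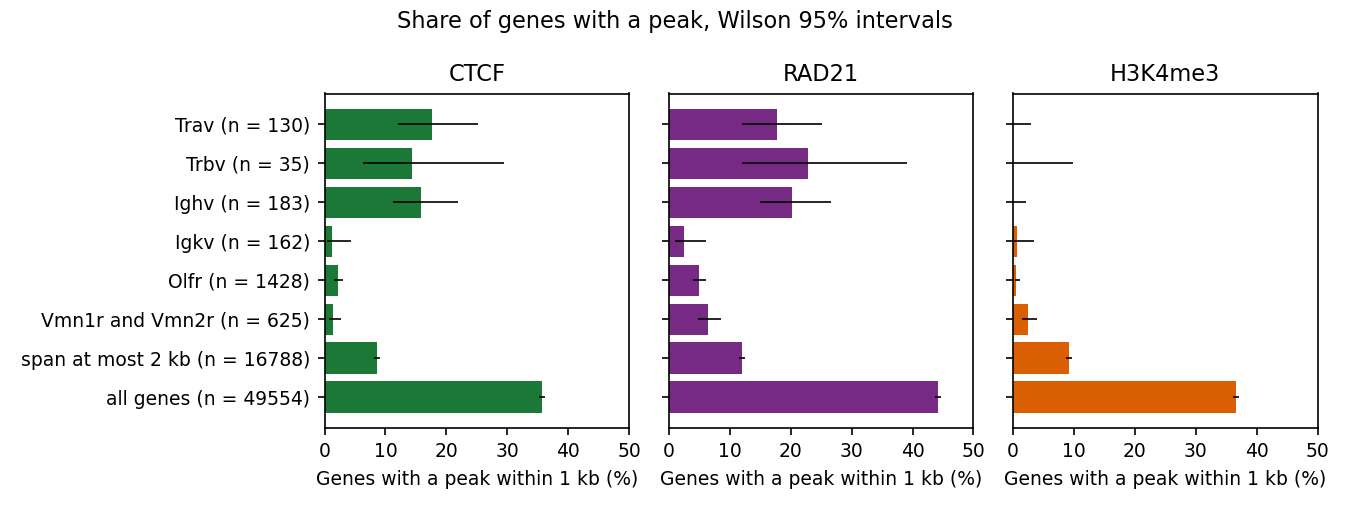
Share of genes with a CTCF, RAD21 or H3K4me3 peak within 1 kb (x axis, %) for Trav and Trbv genes and for other gene families (y axis), with Wilson 95% intervals as bars. Trav, at 17.7%, and Ighv, at 15.8%, lie close together for CTCF, and Igkv is at 1.23%. H3K4me3 is at 0 for both T cell receptor families and for Ighv, and at 0.62% for Igkv.

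Other tandem families gave a scale for these shares. Among antigen receptor genes of B cells, CTCF was within 1 kb of 29 of 183 Ighv genes (immunoglobulin heavy chain V genes, 15.8%) and of 2 of 162 Igkv genes (kappa light chain V genes, 1.23%). It was at 31 of 1428 Olfr genes, which encode olfactory receptors (2.17%), and at 9 of 625 Vmn1r and Vmn2r genes, which encode vomeronasal receptors (1.44%). The Trav interval lay above those of Igkv, Olfr and the vomeronasal genes and overlapped that of Ighv, from 11.3 to 21.8%. H3K4me3 was rare in these families too, so its absence was not particular to the T cell receptor arrays. It was at 0 of 183 Ighv, 1 of 162 Igkv (0.62%), 8 of 1428 Olfr (0.56%) and 15 of 625 vomeronasal genes (2.4%). No test over samples was possible for these shares, and genes of 1 array are neighbours and not independent.

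The peaks at Trav genes sat in the same place relative to the gene, which was examined after the data had been seen. All 23 CTCF peaks had their midpoint below the annotated start, on the side away from the J segments, at 20 to 409 bp with a median of 204 bp (quartiles 167 and 227 bp). Within 1 kb above a Trav gene end no CTCF midpoint was found. Each of the 23 genes had a peak of its own, and no CTCF peak was shared between Trav genes. RAD21 midpoints lay below the start at 22 of 23 genes, at 19 to 390 bp with a median of 202.5 bp; the exception was Trav10, where the midpoint lay 80 bp inside the gene. In the direction in which these genes are read, this is the upstream side. Windows of 1 kb around Trav genes covered 20.7% of the array and held 23 of its 34 CTCF peaks (67.6%) and 23 of its 41 RAD21 peaks (56.1%).

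**Figure D2:**
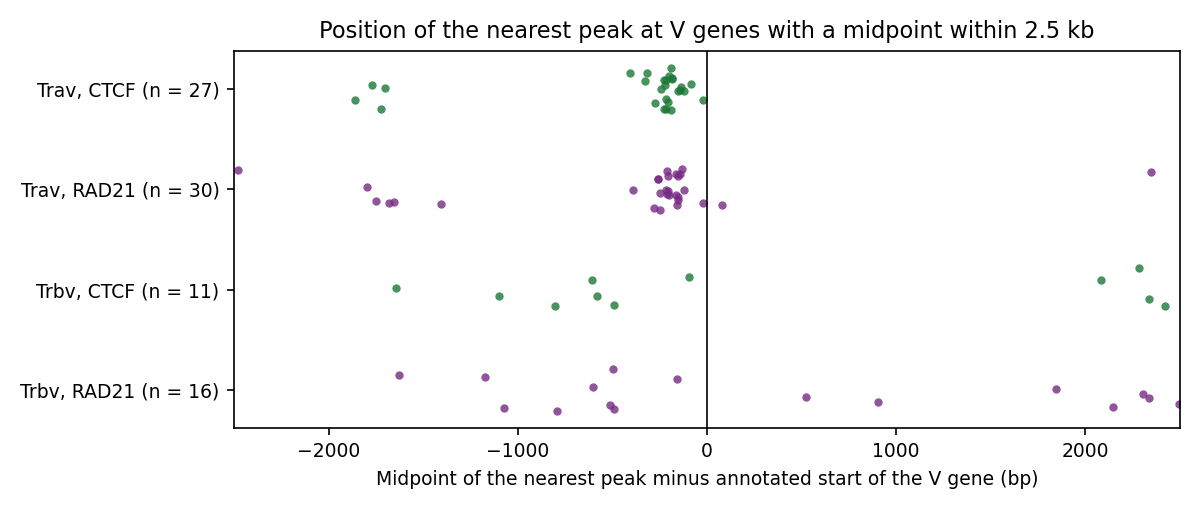
Midpoint of the nearest CTCF or RAD21 peak minus the annotated start of the V gene (x axis, bp; negative values are lower coordinates) for V genes with a midpoint within 2.5 kb; each point is 1 gene, spread vertically only for legibility. Most Trav points for CTCF lie 20 to 409 bp below the start, while those of Trav16d-dv11, Trav16n, Trav16 and Trav12-4 lie 1704 to 1862 bp below it. The Trbv points are scattered on both sides, although those for CTCF within 1 kb all lie below the start.

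Some genes that share a name carried CTCF in all 3 copies of the array's duplicated block. The 3 Trav10 genes each carried CTCF: the midpoint was 218 bp below the start of Trav10d (peak of 37 bp), 220 bp below Trav10n (57 bp) and 329 bp below Trav10 (248 bp). The 3 genes named Trav8d-2, Trav8n-2 and Trav8-2 also each carried it, at 217, 192 and 183 bp, with peaks of 107, 73 and 37 bp. RAD21 was within 1 kb of all 6, with lengths between 71 bp (Trav10) and 362 bp (Trav8-2), and overlapped the CTCF peak at all but Trav10. Trav9d-1 and Trav9n-1 had CTCF at 317 and 275 bp (60 and 74 bp long) but no RAD21, and their namesake Trav9-1 had neither. The 3 Trav16 genes fell outside the 1 kb windows yet had CTCF at 1771 bp (Trav16d-dv11), 1862 bp (Trav16n) and 1704 bp (Trav16) below the start, each with RAD21. Those 3 peaks lay between a Trav8 and a Trav16 gene and were 61, 202 and 120 bp long.

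At the other 15 Trav genes with CTCF the midpoints lay between 20 and 409 bp below the start. The longest CTCF peak at any V gene was at Trav6-7-dv9, 404 bp at 53709722 to 53710125, and it ran across the gene start with its midpoint 20 bp below it. Trav17 had a peak of 247 bp (midpoint 217 bp below the start) and Trav5-1 one of 188 bp (228 bp). Trav9-2 had one of 171 bp (226 bp) and Trav3-4 one of 100 bp (191 bp). All 5 had RAD21 as well, at lengths of 277, 244, 129, 163 and 223 bp.
Shorter CTCF peaks made up the remainder. Trav3-1 had one of 99 bp at 243 bp, Trav6n-6 one of 90 bp at 123 bp, the pseudogene Trav5-2 one of 66 bp at 409 bp, and Trav12-1 one of 61 bp at 204 bp. Peaks of 58, 52, 39, 37 and 37 bp lay at Trav3-3 (183 bp), Trav12-3 (201 bp), Trav6-3 (144 bp), Trav12-2 (82 bp) and Trav19 (151 bp). These 9 also carried RAD21, from 71 bp long at Trav6-3 to 270 bp at Trav12-1. Trav4-3 had a CTCF peak of 61 bp at 138 bp and no RAD21 within 1 kb. The median length of CTCF peaks across the Trav array was 63.5 bp, against 104 bp over the whole list, and the shortest were 37 bp, the shortest length called anywhere.
RAD21 without CTCF was found at Trav7-1, Trav7n-4 and Trav18. The midpoints lay 246, 210 and 211 bp below the start, with lengths of 172, 101 and 130 bp, so the placement was that of the peaks with CTCF.

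Trav genes fall into numbered subfamilies by sequence, and CTCF was unevenly spread over them. It was found within 1 kb in 10 of 23 subfamilies. The 58 genes of the other 13 had none, including all 14 Trav7, 13 Trav13, 9 Trav14 and 9 Trav15 genes, and RAD21 was at 3 of these 58. All 3 Trav10 genes, 3 of 5 Trav8, 3 of 8 Trav3, 3 of 10 Trav12, 3 of 11 Trav9, 3 of 15 Trav6, 2 of 9 Trav5 and 1 of 9 Trav4 genes had CTCF. Several subfamilies held a single gene. Most Trav7, Trav13, Trav14 and Trav15 genes have d or n in their names. Such genes had CTCF less often (7.5% and 11.8%) than genes with plain names (28.6%), and subfamily was not separated from this.

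The middle of the Trav array is a duplicated block in this strain, and its copies carry d or n in the gene name. CTCF was at 3 of 40 d genes (7.5%, 95% interval 2.58 to 19.9%), 4 of 34 n genes (11.8%, 4.67 to 26.6%) and 16 of 56 genes with plain names (28.6%, 18.4 to 41.5%). RAD21 was at 2, 4 and 17 of them (5%, 11.8% and 30.4%). The array was then divided by name into 4 stretches in order along the chromosome. CTCF peaks numbered 2 in the distal plain stretch (8.34 per Mb, 95% interval 1.01 to 30.1), 4 in the d stretch (10.0 per Mb, 2.73 to 25.7), 5 in the n stretch (17.6 per Mb, 5.72 to 41.1) and 23 in the proximal plain stretch (39.2 per Mb, 24.8 to 58.8). RAD21 peaks numbered 3 (12.5 per Mb, 95% interval 2.58 to 36.5), 4 (10.0 per Mb, 2.73 to 25.7), 5 (17.6 per Mb, 5.72 to 41.1) and 28 (47.7 per Mb, 31.7 to 68.9) in the same stretches. The proximal plain stretch had the highest density of both proteins. Its CTCF interval overlapped those of all the other stretches, and its RAD21 interval overlapped those of the distal plain and n stretches. Across all chromosomes CTCF had 19.7 and RAD21 28.8 peaks per Mb.

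**Figure D3:**
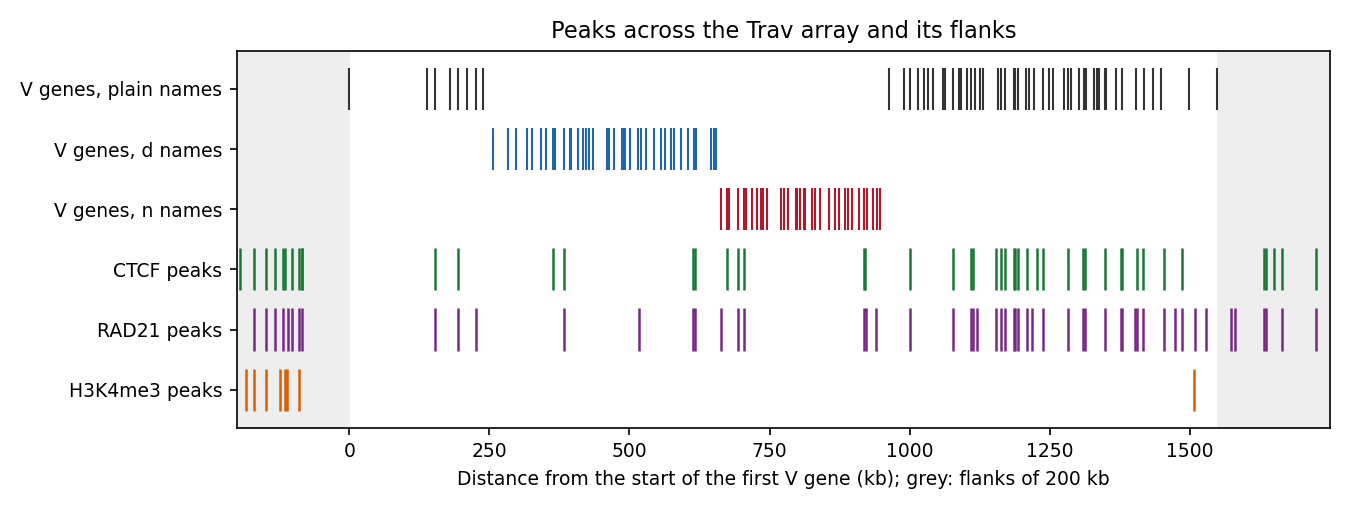
Positions of Trav genes by name and of CTCF, RAD21 and H3K4me3 peaks (rows) against the distance from the start of Trav1 in kb (x axis), with the flanks of 200 kb in grey; each line is 1 gene or peak. The proximal plain stretch holds 23 of the 34 CTCF peaks of the array.

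Genes with the same number in all 3 copies allowed a comparison by position in the block. There were 32 such names, and the comparison was added after the data had been seen. The plain copy alone carried CTCF at 8 of them, namely 12-1, 9-2, 4-3, 5-2, 12-2, 12-3, 3-3 and 6-7, and all 3 copies carried it at 2 names, Trav10 and Trav8-2. A d or n copy carried it without the plain one at 2 names, Trav9-1 (both copies) and Trav6-6 (the n copy), and no copy did at 20. The d and n copies had the same CTCF state at 31 of the 32 names and the same RAD21 state at 30. Most of this agreement was shared absence, since CTCF was at only 3 d and 4 n copies and RAD21 at 2 and 4.
Between Trav10d and Trav13d-3, over 222.4 kb and 26 V genes, no CTCF peak and 1 RAD21 peak of 75 bp were called. That stretch holds the V genes of a CTCF-free gap described below, so its lack of CTCF followed from how its ends were set. Its CTCF count is therefore not a result about the d copies. Between Trav10n and Trav13n-3, over 215.5 kb and 26 V genes, there were 1 CTCF peak, that of Trav6n-6, and 1 RAD21 peak. The corresponding plain stretch from Trav10 to Trav13-3 had nearly the same length, 224.3 kb with 24 V genes, and held 12 CTCF and 14 RAD21 peaks. Each stretch began at the start of the Trav10 gene, so the CTCF peaks below the Trav10 genes themselves are not in these counts. Names were matched by number only. Near-identical copies can leave short reads without a single place to map; how such reads were treated is not given in the sources used here, and its part in the lower counts of the d and n copies was not tested.

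**Figure D4:**
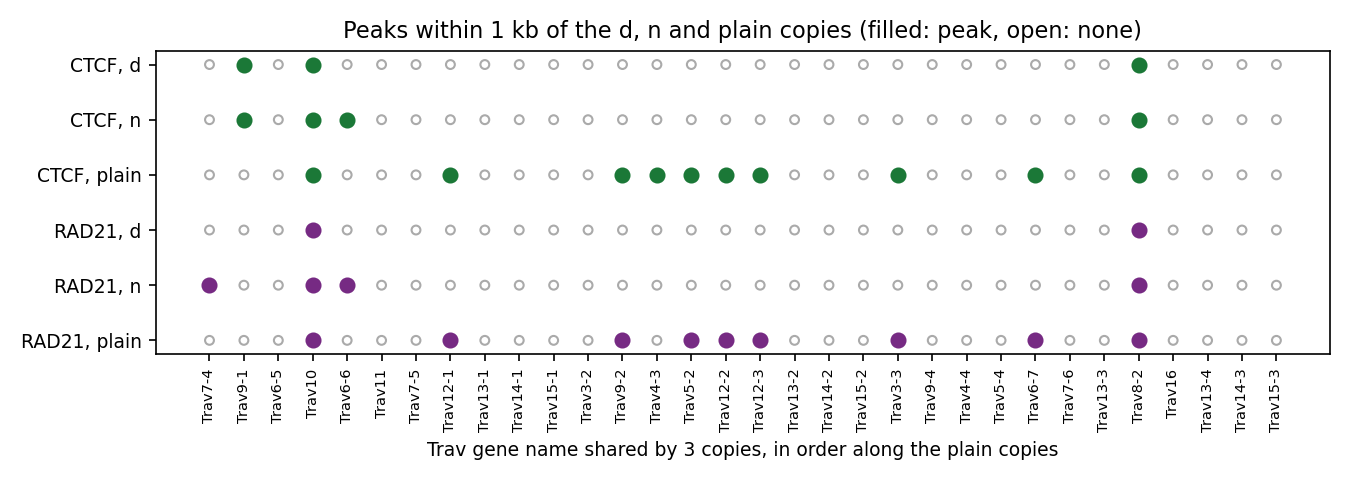
CTCF and RAD21 peaks within 1 kb (filled) or none (open) at the d, n and plain copies (rows) of the 32 Trav names present in all 3 copies (x axis, in order along the plain copies). Trav10 and Trav8-2 are filled in all rows, and 8 names are filled for CTCF in the plain row alone.

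Long CTCF-free stretches lay in the distal plain, d and n parts of the Trav array. The longest that touched the array ran for 236.6 kb from 52343828 to 52580469, from below Trav1 across Trav1 and Trav2 to Trav3-1. Next were 231.4 kb (52810798 to 53042157, 26 V genes from Trav10d to Trav13d-3) and 213.1 kb (53132623 to 53345732, 25 V genes from Trav6n-6 to Trav13n-3). The median of all 35 gaps was 27.4 kb, against 17.0 kb between neighbouring CTCF peaks genome-wide, where 3.66% of gaps were at least as long as the longest here. This share counts single gaps, while the longest here is the maximum of 35, so it does not make that gap rare.

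At most CTCF peaks of both arrays cohesin was called too. RAD21 overlapped 29 of 34 CTCF peaks of the Trav array (85.3%, 95% interval 69.9 to 93.6%) and 11 of 12 of the Trbv array (91.7%, 64.6 to 98.5%), beside 81.9% of CTCF peaks genome-wide. Midpoints of the overlapping peaks were a median of 19 bp apart in Trav (1 to 136 bp) and 22 bp in Trbv (1 to 82 bp). In the other direction, 29 of 41 RAD21 peaks of the Trav array (70.7%, 55.5 to 82.4%) and 11 of 20 of the Trbv array (55%, 34.2 to 74.2%) overlapped CTCF, beside 55.9% genome-wide. All 4 intervals include the genome-wide share.

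At Trbv genes most CTCF peaks lay farther from the gene than at Trav genes, while the shares of genes with a peak had overlapping intervals in both families. Trbv2 had CTCF at 806 bp below the start (125 bp long), the pseudogene Trbv10 at 607 bp (120 bp), Trbv12-1 at 581 bp (207 bp), Trbv12-2 at 490 bp (180 bp) and Trbv20 at 97 bp (82 bp). All 5 lay below the start and all 5 had RAD21, of 153, 168, 126, 127 and 150 bp. The median of 581 bp compares with 204 bp at Trav genes, and the CTCF distances of the families overlapped only through Trbv20. Trbv12-3, a pseudogene, had RAD21 alone (81 bp long) at 510 bp below the start, so the 3 Trbv12 genes had RAD21 at 499, 491 and 510 bp. RAD21 alone was also found above the ends of Trbv19 (72 bp long) and the pseudogene Trbv29 (105 bp long).
Trbv1 and Trbv31, the outermost genes, had none within 1 kb but both proteins just outside. CTCF lay 1786 bp above the end of Trbv1 (40893672 to 40893762) and 1076 bp below Trbv31 (41556567 to 41556616), the side that faces the C segments and, given the opposite reading direction of Trbv31, lies downstream of it. The CTCF peaks 1763 bp above the pseudogene Trbv11 (48 bp long) and 1544 bp above Trbv14 (181 bp long) were likewise outside the windows, and windows of 2.5 kb gave 11 Trbv genes with CTCF and 16 with RAD21.

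CTCF peaks were also counted in stretches of the Trbv array divided by gene name. From the start of Trbv2 to the end of Trbv20, 141.4 kb with 23 V genes, there were 7 CTCF peaks (49.5 per Mb, 95% interval 19.9 to 102) and 11 RAD21 peaks. From Trbv21 to Trbv30, 79.4 kb with 10 V genes, there was no CTCF peak (0 per Mb, 95% interval 0 to 46.5). This stretch held 2 RAD21 peaks, 187 bp long between Trbv27 and Trbv28 and 105 bp long beside Trbv29. It lies inside the longest CTCF-free gap of the array, so the lack of CTCF followed from where the array was divided. The CTCF intervals of the 2 stretches overlapped. The gap without CTCF ran for 341.7 kb from 41188218 to 41529905, across Trbv20 to Trbv30 and the trypsinogen genes, and held 5 RAD21 peaks. Genome-wide 2.12% of gaps were at least as long, a share of single gaps, while this one was the longest of 13. A shorter gap of 152.9 kb separated Trbv1 from Trbv2. Over the whole array the densities, 17.99 CTCF and 29.98 RAD21 peaks per Mb, were close to those of chromosome 6, 19.1 and 29.0 per Mb, and for Trav they were 21.9 and 26.5 per Mb, against 15.03 and 23.9 on chromosome 14.

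**Figure D5:**
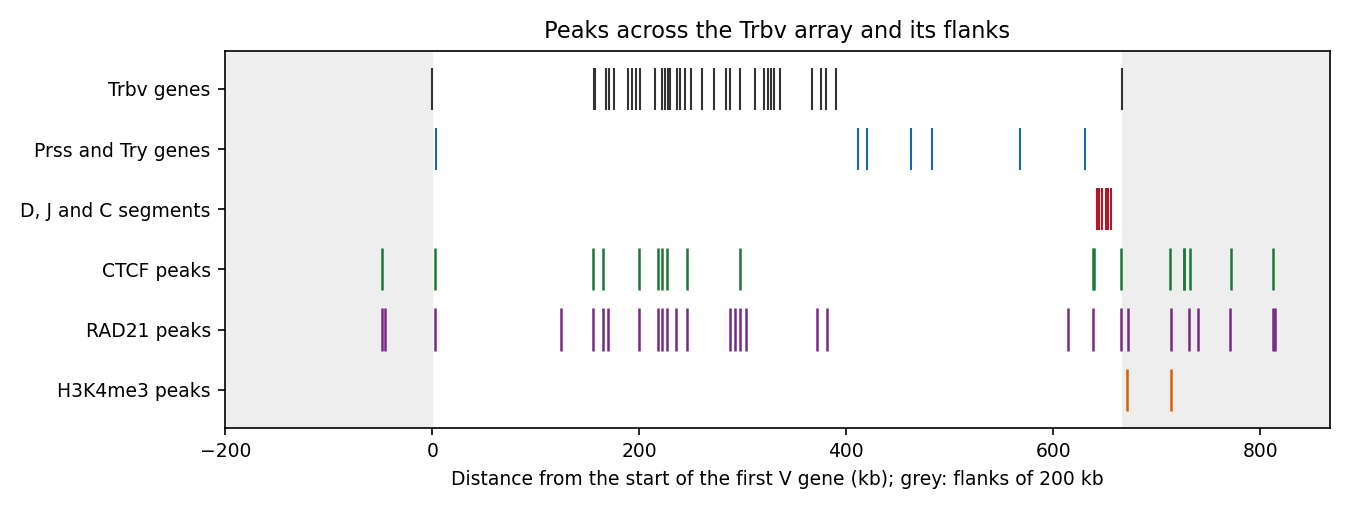
Positions of Trbv genes, of Prss and Try genes, of D, J and C segments and of CTCF, RAD21 and H3K4me3 peaks (rows) against the distance from the start of Trbv1 in kb (x axis), with the flanks of 200 kb in grey; each line is 1 gene or peak. The longest gap without CTCF starts just below Trbv20 and ends just below the D, J and C segments.

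The protein-coding genes and the J and C segments of these loci carried no peak, unlike the lncRNA gene Gm30392 and the delta V gene Trdv1 inside the Trav array. The Trbv array encloses 13 protein-coding genes, most of them trypsinogen-like proteases made in the pancreas, and none had CTCF, RAD21 or H3K4me3 within 1 kb, among them Prss1, Prss2, Prss3, Try4, Try5 and Try10. The 4 coding genes inside the Trav array, 3 of which are olfactory receptor genes, had none either. Over all protein-coding genes the shares were 56.3% (CTCF), 65.8% (RAD21) and 64.9% (H3K4me3). Neither had the 18 D, J and C segments of the beta locus or the 61 Traj and Trac segments. Among genes of at most 2 kb the shares were 8.6%, 11.9% and 9.16%. These segments are neighbours with median spans of 49 and 60 bp, so their windows largely overlap and are not separate observations. The nearest CTCF to Trbd1, the first beta D segment, was a peak of 153 bp whose edge lay 2893 bp below it (41530155 to 41530307), next to a CTCF peak of 37 bp that overlapped RAD21.

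The delta chain segments sit beside and inside the Trav array. Of 6 Trdv genes 1 had CTCF and 2 had RAD21: at Trdv1 a CTCF peak of 237 bp ended 109 bp below the start, with RAD21 of 218 bp, and at the pseudogene Trdv3 a RAD21 peak of 115 bp ended 153 bp below it. Both lay below the start, as at Trav genes. The longest peaks of the upper flank lay between Trdv5 and Traj61, the first alpha J segment. The CTCF peak there was 359 bp long (54152842 to 54153200) and the RAD21 peak 595 bp (54152661 to 54153255), and the CTCF edge was 1804 bp below Traj61. CTCF peaks of 101, 133 and 66 bp, each with RAD21, lay between Trdv3 and the delta D segments, and a CTCF peak of 39 bp without RAD21 lay 2991 bp above Trdv4.

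H3K4me3 peaks lay mostly in the flanks. In the Trav array a single peak was called, 1190 bp at 53935663 to 53936852, 8067 bp above the end of the pseudogene Trav22 and inside the lncRNA gene Gm30392, with RAD21 of 109 bp and without CTCF. In the Trbv array no H3K4me3 peak was called. The 200 kb below Trav1 held 7 H3K4me3 peaks. At Chd8 they were 512 and 885 bp long, at Sall2, which encodes a zinc finger protein, 294 and 1133 bp, and at Mettl3, which encodes an RNA methyltransferase, 1153 bp. Rab2b and Tox4 shared one of 1291 bp, and the one nearest to the array, 558 bp long, lay 88.5 kb from Trav1 with no annotated gene within 1 kb. The same flank held 10 CTCF and 8 RAD21 peaks. The 200 kb above Trav23, which hold delta and alpha segments, had no H3K4me3. Beyond the Trbv array it lay 4169 bp above the end of Trbv31 (294 bp, the shortest length called) and at Ephb6 (817 bp, with CTCF of 311 bp and RAD21 of 270 bp), and below Trbv1 none was called within 200 kb.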

How the data were processed

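Peak positions were analysed for CTCF, RAD21 and H3K4me3 ChIP-exo in Bruce-4 cells. Named in the submitters' processing notes are MACS2, bedtools 2.30.0, Picard 2.27.4, Bowtie2 2.4.5 and mm10; the sources used here give neither their roles nor a peak threshold or control. The authors deposited each list as chromosome, start and end, a position unit with no score, so a missing peak shows only that none was called. For CTCF a union was deposited with library 2; how the 2 libraries entered it is not stated, and a list of the first was not analysed here. Intervals were counted with pandas 2.3.3, scipy 1.17.1 and numpy 2.4.6 under Python 3.11.15, with an overlap of at least 1 bp and 1-based coordinates. Counts were tested on simulated peaks and matched bedtools 2.31.1 at all 49554 genes for the 3 lists. Genes came from RefSeq GRCm38.p6, which gave no strand for V genes. Chromosome lengths were taken as the last annotated or called base. The promoter table held 0 V gene promoters, so the planned motif count in V promoters was not made. All V genes with a CTCF or RAD21 peak within 1 kb were named, as were array ends, gap borders and other genes with H3K4me3. Members and lists were chosen with earlier results of these data known. Alternatives varied the window, the peaks kept, their width, the overlap rule and the members counted. Figures were drawn with matplotlib 3.10.9.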

Additional observations from a re-analysis of the deposited data

How the results depend on the processing

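Of 106 alternative values for 22 results, 80 were classed as the same and 26 as moved. Gene counts were the same if within 1.5 times the main count, and densities and shares if within the counting interval. The longest gaps were the same only if equal, so even a small change was classed as moved. H3K4me3 stayed at 0 V genes under every window, peak set and member rule tried. Taking the gene span alone gave 1 Trav gene with CTCF and 3 with RAD21, and 0 Trbv genes with either, as follows from peaks that lie beside the genes. For Trbv, windows of 500 bp left 3 genes with CTCF, windows of 2.5 kb gave 11 with CTCF and 16 with RAD21, and leaving out pseudogenes left 5 with RAD21. Among peaks above the median length of their list, 6 Trav genes had CTCF, 9 had RAD21, and 3 Trbv genes had RAD21. CTCF then fell to 7.10 per Mb in Trav and 8.99 per Mb in Trbv, and RAD21 to 10.97 and 11.99 per Mb. The overlap of CTCF with RAD21 fell to 63.6% (Trav) and 50% (Trbv), and that of Trav RAD21 peaks with CTCF to 41.2%, since both lists were shortened. Allowing 200 bp between peaks raised the Trbv CTCF overlap to 100%. The longest gaps without CTCF became 419.7 kb (Trav) and 392.8 kb (Trbv) with the longer peaks and 250.1 and 341.9 kb without the shortest 10%. The side of the gene and the comparison of copies were added after the data had been seen, as were the settings for the side. RAD21 midpoints lay below the start at 100% of Trav genes with the longer peaks and without the shortest 10%. With windows of 2.5 kb they did so at 87.5% of 32 (95.7% with 1 kb). For Trbv they did so at 100% of 3 genes with the longer peaks and at 56.25% of 16 with windows of 2.5 kb (75% with 1 kb). For CTCF at Trav genes windows of 2.5 kb gave 96.6% of 29 genes, and at Trbv genes 63.6% of 11. No paired analysis was possible because each antibody had a single list. Depth was unknown, so peaks below the calling threshold cannot be judged.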
